A study of Bos taurus with 6 samples.

Results

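The genes of the cytosolic translation elongation factors were examined in rumen epithelial primary cells (REPC) of cattle, with and without butyrate. The 7 genes were EEF1A1, EEF1A2, EEF1B2, EEF1D, EEF1G, EEF2 and the eEF2 kinase gene EEF2K, out of 32183 genes listed. They were chosen by name, with the FPKM of the butyrate and control cultures already known, and the rise of EEF1A2 beside EEF1A1 was part of that choice. The levels and fold changes of these 7 genes are therefore given as a description, with no test. FPKM is a read-depth-scaled number of fragments per kilobase of transcript, and so a level per length. Genes are set side by side by it here, within the limits given below.

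REPC were grown from the rumen epithelium of a 2-week-old Holstein bull calf that had received milk replacer only, so all 6 cultures carry the cells of 1 animal. The 3 butyrate cultures received 5 mM butyrate in the medium for 24 h, and the 3 control cultures are labelled as control with no further agent. The methods call the 3 cultures of each group biological replicates, numbered 1 to 3, and the sources used here do not say how they were split, so the spread and the p-values below measure the difference between cultures of this calf's cells. Butyrate is a short-chain fatty acid made by rumen fermentation and an inhibitor of histone deacetylases.

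During elongation, eEF1A in its GTP form delivers each aminoacyl-tRNA to the ribosome. The eEF1B complex, whose subunits are encoded by EEF1B2, EEF1D and EEF1G, reloads eEF1A with GTP, and eEF2 then moves the ribosome along the mRNA. EEF1A1 and EEF1A2 encode 2 closely related forms of eEF1A. EEF1A1 is expressed in nearly all tissues, while EEF1A2 is known chiefly from neurons, heart and skeletal muscle. eEF2 kinase phosphorylates eEF2 and thereby slows elongation.

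The 6 libraries had similar depth, with 5756609 to 6186809 fragments per culture implied by the confidence bounds of the FPKM values, which is an approximation. FPKM summed to between 678035 and 681912 in the controls and to between 619401 and 629037 after butyrate, and 16051 to 16193 genes against 17306 to 17510 were above 0. All 12 epithelial markers examined were detected, and KRT17 was the highest of them at 3858 ± 87.0 FPKM (SD, n = 3) in the controls. EPCAM and PKP1 were low there, at means of 0.540 and 1.99 FPKM. Genes of mesenchymal cells were also high in the controls, with VIM at 2464 ± 61.0 FPKM and COL1A1 at 1149 ± 34.9 FPKM (SD, n = 3). The smooth muscle actin gene ACTA2 was at 2752 ± 99.7 FPKM (SD, n = 3). In these bulk samples a change in the share of a cell type and a change in the RNA of each cell cannot be told apart.

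The main change among the elongation factors was in EEF1A2, which went from near 0 to the level of EEF2K, while EEF1A1 overlapped between the groups as deposited and was slightly higher after butyrate on 2 other scalings. EEF1A2 (gene15885; chromosome 13, 54623917 to 54631599, UMD3.1) was listed at 0, 0.112 and 0.108 FPKM in control replicates 1 to 3 and at 33.2, 27.9 and 30.1 FPKM in butyrate replicates 1 to 3. All 3 butyrate cultures were far above all 3 controls. The mean went from 0.0732 ± 0.0634 to 30.4 ± 2.63 FPKM (SD, n = 3), and the gene moved from rank 15247 to rank 3176 among all genes by mean FPKM. The log2 fold change was 7.54 (SE 0.30) on the log2(FPKM + 0.1) scale.

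The size of this fold is set by a handful of control fragments. The confidence bounds of EEF1A2 were 0 to 0.430 and 0 to 0.415 FPKM in control replicates 2 and 3, and in butyrate replicates 1 to 3 they were 29.3 to 37.0, 24.6 to 31.3 and 26.5 to 33.8 FPKM. At 0.108 FPKM per implied fragment, the controls together held about 2 fragments of EEF1A2 and the butyrate cultures about 844. The ratio of 422 has an exact 95% interval of 116 to 3490, which covers counting error only. With a pseudocount of 0.01 the log2 fold change was 9.18 and with a pseudocount of 1 it was 4.87, so the direction held and the fold varied.

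EEF1A1 (gene11108; chromosome 9, 13230572 to 13237071) was listed at 204, 197 and 188 FPKM in control replicates 1 to 3 and at 193, 197 and 195 FPKM in butyrate replicates 1 to 3. The groups overlapped, with means of 196 ± 8.29 and 195 ± 2.13 FPKM (SD, n = 3). The log2 fold change was -0.01 (SE 0.04) as deposited, 0.12 after rescaling to TPM, in which every culture has the same sum, and 0.14 after quantile normalization, so its sign depended on the scaling. On the TPM scale its range was 276 to 301 in the controls and 310 to 317 after butyrate, and after quantile normalization 178 to 194 and 204 to 208, so the groups overlapped only as deposited.

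By FPKM, EEF1A2 mRNA was present after butyrate beside EEF1A1 mRNA, whose level overlapped with the controls as deposited. The summed FPKM of both genes was 204, 197 and 188 in the controls and 226, 225 and 225 after butyrate, and the groups did not overlap. EEF1A2 made up 0%, 0.0566% and 0.0574% of this sum in the controls and 14.6%, 12.4% and 13.4% after butyrate. EEF1A1 remained the higher of the pair in every butyrate culture, by 5.83, 7.07 and 6.46 times in replicates 1 to 3.

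**Figure D1:**
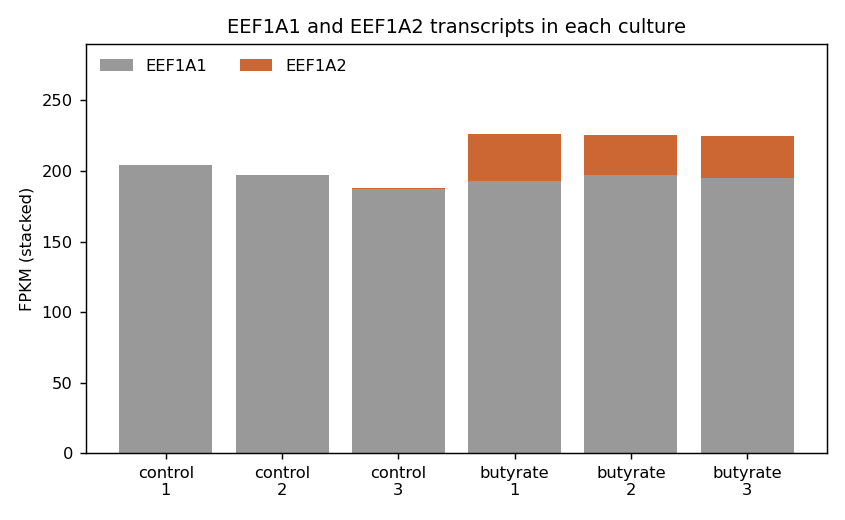
Stacked bars give the FPKM of EEF1A1 (grey) and EEF1A2 (orange) in each of the 6 cultures. The grey part is between 188 and 204 FPKM in all cultures, and an orange part of 27.9 to 33.2 FPKM sits on it in the 3 butyrate cultures.

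The share of EEF1A2 differed between FPKM and implied fragments, so the share and the ratio to EEF1A1 above hold for the deposited FPKM only. By the confidence bounds, 1 implied fragment was worth 0.0158 FPKM at EEF1A1 and 0.108 FPKM at EEF1A2, a 6.82-fold difference, although the loci span 6500 and 7683 bases. Counted in implied fragments, EEF1A2 was 2.49%, 2.42% and 2.28% of both genes in butyrate replicates 1 to 3. EEF1A1 has many near-identical processed copies in mammalian genomes and only uniquely mapped reads were used, so its level is uncertain, and the part of this in the difference was not tested.

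Of the 3 exchange factor subunits, EEF1B2 and EEF1D were lower after butyrate by more than EEF1G. EEF1B2 (gene1905; chromosome 2, 94922839 to 94926122), the nucleotide exchange subunit eEF1B-alpha, was listed at 305, 292 and 310 FPKM in the controls and at 146, 155 and 152 FPKM after butyrate. Every butyrate value was below every control value. The mean was 50.1% lower, from 302 ± 9.54 to 151 ± 4.40 FPKM (SD, n = 3), and the log2 fold change was -1.0 (SE 0.04).

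EEF1D (gene16510; chromosome 14, 2313946 to 2326721), the other subunit with exchange activity, was listed at 283, 302 and 286 FPKM in the controls and at 174, 178 and 188 FPKM after butyrate. These groups were apart as well, and the mean was 38.1% lower, from 290 ± 10.02 to 180 ± 7.40 FPKM (SD, n = 3). The log2 fold change was -0.69 (SE 0.05). In the controls the ranges of EEF1B2 and EEF1D overlapped, and after butyrate EEF1D was the higher in all 3 cultures.

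EEF1G (gene30299; chromosome 29, 41614573 to 41624167), the structural subunit that anchors the complex, was listed at 452, 461 and 472 FPKM in the controls and at 410, 396 and 377 FPKM after butyrate. The mean was 14.6% lower, from 462 ± 10.2 to 394 ± 16.97 FPKM (SD, n = 3). Its log2 fold change of -0.23 (SE 0.04) was -0.10 on the TPM scale and turned to 0.02 after quantile normalization, so its direction was not settled.

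Ratios of 2 genes within a culture do not change with a scale factor for the culture. EEF1G over EEF1B2 went from 1.53 ± 0.0483 to 2.62 ± 0.170 and EEF1D over EEF1B2 from 0.962 ± 0.0632 to 1.19 ± 0.0466 (FPKM ratios; SD, n = 3). The sum of EEF1A1 and EEF1A2 over EEF1B2 went from 0.650 ± 0.0393 to 1.496 ± 0.0481 (SD, n = 3). The groups were apart in all 3 ratios, so EEF1B2 mRNA fell against EEF1G, against EEF1D and against the sum of EEF1A1 and EEF1A2. EEF1D fell against EEF1G as well. EEF1G over EEF1D went from 1.59 ± 0.0632 to 2.20 ± 0.182 (SD, n = 3), with groups apart.

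EEF2 (gene8920; chromosome 7, 21252438 to 21261328), the translocase, was listed at 343, 362 and 335 FPKM in the controls and at 420, 391 and 389 FPKM after butyrate. Every butyrate culture was above every control, and the mean went from 347 ± 13.6 to 400 ± 17.3 FPKM (SD, n = 3). The log2 fold change was 0.21 (SE 0.05) as deposited, 0.33 on the TPM scale and 0.43 after quantile normalization. EEF2 over the sum of EEF1A1 and EEF1A2 was 1.77 ± 0.0776 in the controls and 1.77 ± 0.0708 after butyrate (SD, n = 3), with overlapping groups.

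EEF2K (gene27833; chromosome 25, 20096656 to 20168744), the calmodulin-dependent kinase of eEF2, was listed at 44.1, 43.8 and 39.1 FPKM in the controls and at 33.7, 31.6 and 32.2 FPKM after butyrate. The groups were apart and the mean was 23.3% lower, from 42.3 ± 2.82 to 32.5 ± 1.08 FPKM (SD, n = 3), and the log2 fold change was -0.38 (SE 0.07). EEF2 over EEF2K went from 8.20 ± 0.401 to 12.3 ± 0.212 (FPKM ratio; SD, n = 3). These are mRNA levels, and the phosphorylation of eEF2 was not measured.

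**Figure D2:**
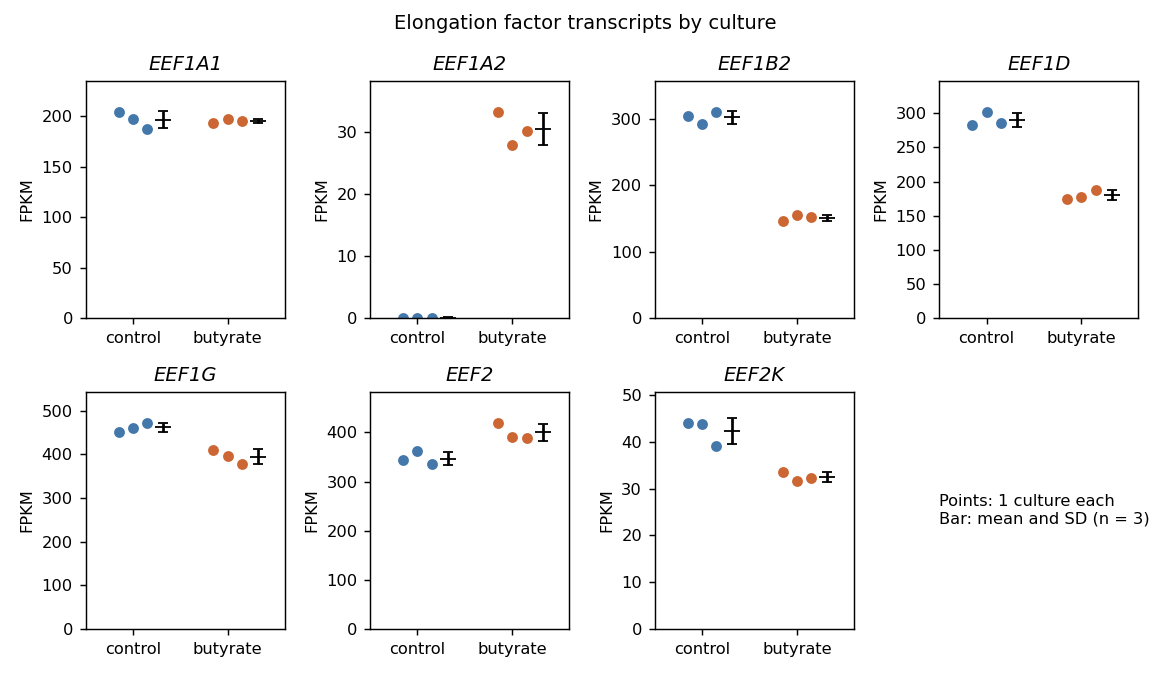
Each panel plots the FPKM of 1 gene, with 1 point per culture and a bar for the mean and SD of 3 cultures. EEF1A2 rises from near 0, EEF1A1 overlaps between groups as deposited, EEF1B2, EEF1D, EEF1G and EEF2K are lower after butyrate as deposited, EEF2 is higher, and EEF1G turns to 0.02 (log2) after quantile normalization.

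The FPKM changes of EEF2K and EEF1D differed from their changes in fragments. Implied fragments of EEF2K were 780 to 851 in the controls and 819 to 841 after butyrate, so the groups overlapped. As a share of the implied fragments of the culture its log2 change was 0.05, against -0.38 in FPKM, while the FPKM that 1 fragment was worth changed by -0.43. For EEF1D the same quantities were -0.33 in fragments and -0.36 per fragment.

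EEF1A1 went the other way, with 13012 to 14288 implied fragments in the controls and 11287 to 11625 after butyrate. Its log2 change was -0.22 in fragments and 0.21 in FPKM per fragment. EEF1B2 was -1.07 in fragments, EEF1G -0.14 and EEF2 0.36, with the same sign as in FPKM. Over the 6430 genes averaging 10 FPKM or more, the log2 change in FPKM per fragment had a median of -0.06 and 10th and 90th percentiles of -0.24 and 0.17, so EEF2K, EEF1D and EEF1A1 lay outside that range. The deposited gene values hold no transcript isoforms, and a change in the transcripts behind each gene was not tested.

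As deposited, the FPKM values put the 7 genes in a new order after butyrate. In the controls the order was EEF1G, EEF2, then EEF1B2 and EEF1D with overlapping ranges, then EEF1A1, EEF2K and EEF1A2. After butyrate EEF2 and EEF1G overlapped at the top, with 389 to 420 and 377 to 410 FPKM, followed by EEF1A1, EEF1D, EEF1B2, and last EEF2K and EEF1A2, whose ranges of 31.6 to 33.7 and 27.9 to 33.2 FPKM overlapped. The other neighbours in each order did not overlap. Fragments are not a level per length, but in implied fragments EEF1A1 was the highest of the 7 genes in both groups and EEF1B2, with 1752 to 1958, was above EEF1D, with 1006 to 1034, in the controls. The FPKM of the 6 factors without EEF2K summed to 1598 ± 13.8 in the controls and to 1351 ± 23.7 after butyrate, which was 0.235% ± 0.00141 and 0.217% ± 0.00547 of all FPKM (SD, n = 3).

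All 7 genes passed the filter on low values, a mean of 0.1 FPKM over the 6 cultures. EEF1A2, at a control mean of 0.0732 FPKM, passed it only through its butyrate values. Groups were apart in 6 of the 7 genes, EEF1A1 being the exception as deposited, beside 65.0% of the 15813 genes tested. All 7 were apart on the TPM scale, and after quantile normalization EEF1G was the exception. The genes were chosen on this contrast, so nothing is read from this count.

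The median log2 fold change of all genes tested was 0.10 as deposited, 0.24 on the TPM scale and -0.04 after quantile normalization. Relative to these medians, EEF1B2 was at -1.11, -1.12 and -0.78, EEF1D at -0.79, -0.81 and -0.48, and EEF2K at -0.48, -0.50 and -0.27. EEF2 was at 0.10, 0.09 and 0.48, EEF1A1 at -0.11, -0.13 and 0.18, and EEF1G at -0.33, -0.35 and 0.06. EEF1A2 was at 7.43, 7.76 and 7.31. The signs of EEF1A1 and EEF1G thus turned with quantile normalization, and those of the other 5 genes did not.

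**Figure D3:**
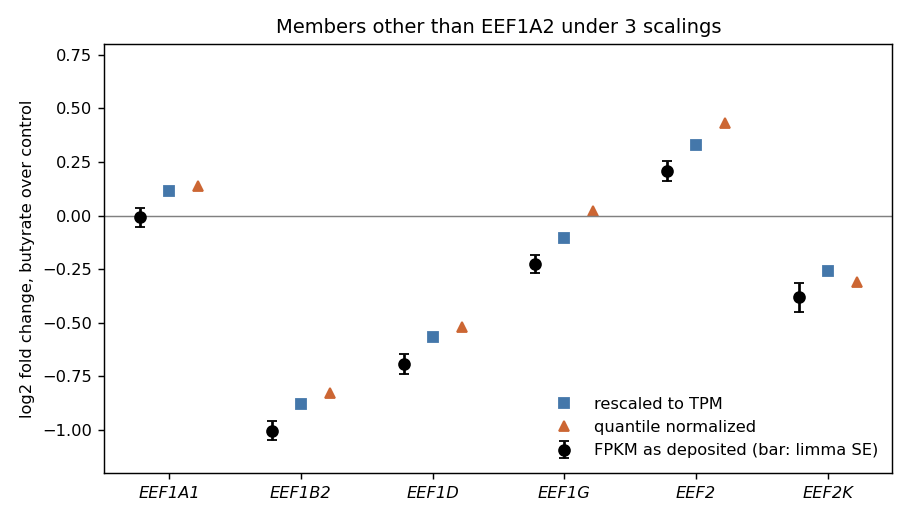
Points give the log2 fold change (butyrate over control) of the 6 genes other than EEF1A2 under 3 scalings, with the limma SE for FPKM as deposited. EEF1B2 stays between -1.0 and -0.83 and EEF1D between -0.69 and -0.52, while EEF1G reaches 0.02 and EEF1A1 moves from -0.01 to 0.14.

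The other genes of elongation and of the rest of translation were read from 7 lists. Of 123 genes tested in them, 19 were higher and 73 lower after butyrate (limma, Benjamini-Hochberg adjusted p under 0.05 over all genes tested), beside 32.5% higher and 25.9% lower among all genes tested. The counts of the single lists below stand beside the same shares, and no list was tested against them. The median log2 fold change of the 123 genes was -0.30, against 0.10 over all genes. For genes averaging 10 FPKM or more it was -0.36 over 103 genes of the lists and -0.10 over all such genes. The study's methods define a differentially expressed gene (DEG) by a log2 fold change beyond 2 at a Bonferroni-corrected p under 0.05. The study ran its differential expression with Cufflinks tools. Here the same cut-offs were applied to the limma fit, so passing them is not the study's own DEG call. Of all genes tested, 2.46% passed upwards and 1.51% downwards, and of the 123 genes 0 passed upwards and 1 downwards. On the TPM scale the counts were 27 higher and 60 lower, so 31.0% of the calls were upward in place of 20.7%, while over all genes this share went from 55.7% to 64.0%.

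The genes that modify eEF1A or bind the eEF1 complex were mostly lower, with 4 of 6 lower and none higher. METTL13, which methylates eEF1A at its amino terminus and at a lysine, fell from 14.5 ± 0.560 to 3.81 ± 0.343 FPKM (SD, n = 3; log2 fold change -1.90, adjusted p 1.4e-06, limma). VARS, the valyl-tRNA synthetase held in a complex with eEF1B, fell from 125 ± 4.35 to 52.0 ± 3.41 FPKM (SD, n = 3; log2 fold change -1.26, adjusted p 6.3e-07, limma). METTL10, another eEF1A lysine methyltransferase gene, and EEF1E1, a component of the multisynthetase complex, fell by 0.55 and 0.46 on the log2 scale. EEF1AKMT1 (0.19) and METTL21B (-0.03), which also encode eEF1A lysine methyltransferases, did not pass the test, and EEF1AKMT1 was called higher on the TPM scale (adjusted p 0.0143, limma; 0.0143 to 0.264 over its alternatives).

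The genes that make diphthamide, the modified histidine of eEF2, or methylate eEF2 gave 5 lower and none higher of 8 as deposited, and 3 lower and 1 higher on the TPM scale. The 1 higher there was DNAJC24 (adjusted p 0.0240, limma; 0.0240 to 0.293 over its alternatives). DPH5 fell from 7.58 ± 0.475 to 4.02 ± 0.109 FPKM (SD, n = 3) and DPH3 from 22.1 ± 0.709 to 13.9 ± 1.05 FPKM (SD, n = 3), log2 fold changes of -0.90 and -0.67. DPH7 and DPH6 fell by 0.37 and 0.36 on the log2 scale, and the call of DPH6 was lost on the TPM scale (adjusted p 0.0511, limma; 0.00572 to 0.0511 over its alternatives). DPH2 (-0.43, adjusted p 0.0337, limma) kept its call in 7 of 14 alternatives, with adjusted p from 0.0158 to 0.136 over the alternatives. The call was lost on the TPM scale, without the limma trend and without the filter on low values. Leaving out control replicate 1 or 3 or butyrate replicate 2 or 3 also removed it.

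Of 18 genes for regulators of eEF2 kinase, 4 were higher, 6 lower and 8 without a call, with a median log2 fold change of 0.03. The shares were 22.2% higher and 33.3% lower, beside 32.5% and 25.9% of all genes tested. The counts were 7 higher and 5 lower on the TPM scale and 4 higher and 3 lower after quantile normalization. CDK1, a cell cycle kinase that also phosphorylates eEF2 kinase, was the one gene of all 7 lists past the DEG thresholds and fell from 32.5 ± 1.39 to 2.62 ± 0.708 FPKM (SD, n = 3; log2 fold change -3.62, adjusted p 8.1e-07, limma). MAPK13, the p38-delta kinase, rose from 7.17 ± 1.32 to 25.4 ± 0.480 FPKM (SD, n = 3; log2 fold change 1.83). In the mTORC1 pathway, which restrains eEF2 kinase, the inhibitor gene TSC2 rose by 0.93 and the activator RHEB and the subunit gene RPTOR fell by 0.46 and 0.56 on the log2 scale. The kinase gene MTOR (0.25) had no call except in 2 of 14 alternatives, the TPM scale among them (adjusted p 0.0158, limma; 0.0158 to 0.214 over its alternatives), and its targets RPS6KB1 (0.05) and RPS6KB2 (-0.09) had none. RPS6KA1, a ribosomal S6 kinase gene, rose by 0.42 on the log2 scale.

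Among 14 genes for eIF5A, selenocysteine decoding, ribosome rescue and termination, 2 were higher and 7 lower. EIF5A, which helps the ribosome past stalling peptide bonds, fell from 790 ± 33.9 to 412 ± 18.9 FPKM (SD, n = 3; log2 fold change -0.94, adjusted p 8.3e-07, limma). The recycling factor gene ABCE1 fell by 1.17 and GSPT1, which encodes the release factor eRF3a, by 0.92 on the log2 scale. GTPBP2, a ribosome rescue GTPase gene, rose from 1.52 ± 0.359 to 3.54 ± 0.448 FPKM (SD, n = 3). EIF5A2, the second eIF5A gene, was at 4.33 ± 0.521 and 6.68 ± 2.18 FPKM (SD, n = 3; log2 fold change 0.57, adjusted p 0.0469, limma). Its call held in 5 of 14 alternatives, with adjusted p from 0.0252 to 0.232. The call was lost without any 1 of the cultures other than butyrate replicate 3. It was also lost after quantile normalization, with a pseudocount of 0.01, without the limma trend and without the filter on low values.

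The mitochondrial translation factors gave 8 lower and none higher of 11 as deposited, and 7 lower and none higher on the TPM scale. The mitochondrial elongation and recycling factor genes GFM1 and GFM2 fell by 0.83 and 0.87 and the initiation factor gene MTIF3 by 0.85 on the log2 scale. TUFM, the mitochondrial counterpart of eEF1A, was picked after its values were seen and fell from 142 ± 6.38 to 102 ± 0.469 FPKM (SD, n = 3; log2 fold change -0.47, adjusted p 4.2e-05, limma).

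Of 45 cytosolic initiation factor genes, 6 were higher and 32 lower. The RNA helicase gene EIF4A1 fell from 371 ± 21.6 to 134 ± 5.38 FPKM (SD, n = 3; log2 fold change -1.47, adjusted p 1.6e-07, limma), and EIF2D and EIF2B5 fell by 1.23 and 1.17 on the log2 scale. EIF4E3, a cap-binding protein gene, rose by 0.85 and EIF1B by 0.56. The call of EIF4EBP3 (0.51, adjusted p 0.0484, limma) held in 5 of 14 alternatives, with adjusted p from 0.0238 to 0.192. That call was lost without any 1 of the cultures other than control replicate 3. It was also lost after quantile normalization, with a pseudocount of 0.01, without the limma trend and without the filter on low values.

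The cytosolic aminoacyl-tRNA synthetases and their scaffold proteins, which supply the substrate of eEF1A, were split, with 7 higher and 11 lower of 21. AIMP2, a scaffold of the multisynthetase complex, fell from 119 ± 4.01 to 43.2 ± 0.510 FPKM (SD, n = 3; log2 fold change -1.46, adjusted p 1.0e-07, limma), and LARS and DARS, for leucine and aspartate, fell by 1.10 and 1.02 on the log2 scale. IARS, WARS and CARS, for isoleucine, tryptophan and cysteine, rose by 0.59, 0.52 and 0.41 on the log2 scale. AARS, GARS, SARS and TARS, which were named after their values were seen, rose by 0.37, 0.36, 0.39 and 0.31.

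**Figure D4:**
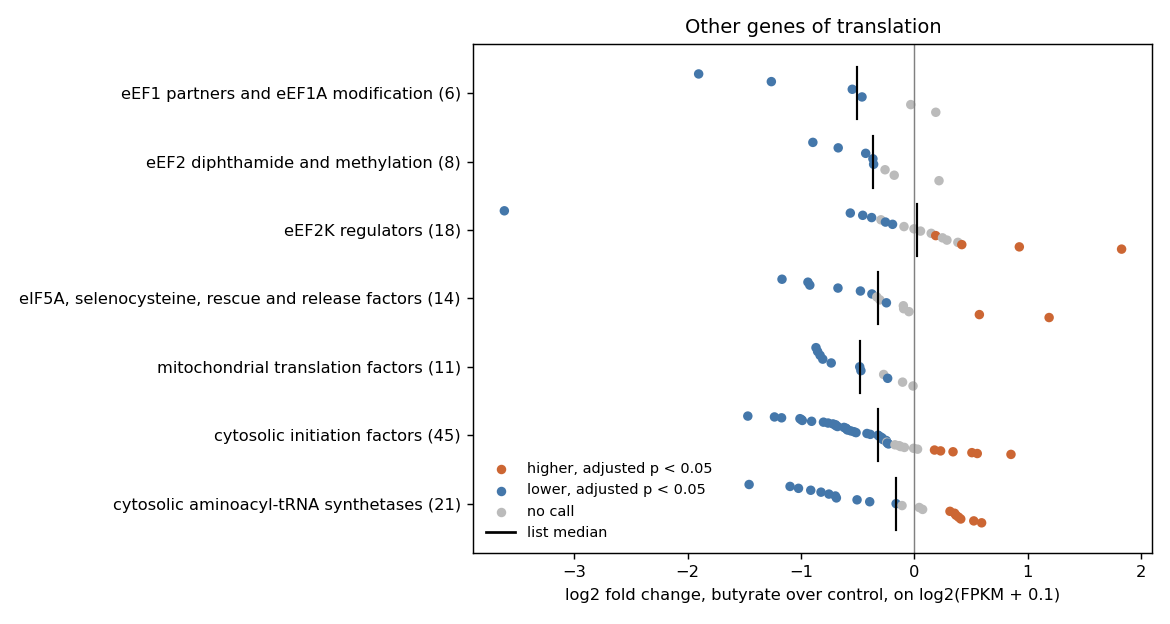
Each point is the log2 fold change of 1 gene on the log2(FPKM + 0.1) scale, grouped by list with the number tested in brackets, coloured by call, and the black line is the list median. The medians of 6 lists lie below 0, from -0.50 to -0.16, and that of the eEF2K regulators lies at 0.03.

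Of the genes listed within 100 kb of EEF1A2 on chromosome 13, 9 were high enough to be tested. Of these, 4 were higher, 2 lower and 3 had no call, with a median log2 fold change of 0.44, beside the 32.5% higher and 25.9% lower of all genes tested. The filter admits a gene near 0 in the controls only where its butyrate values are high. STMN3, at a control mean of 0.0833 FPKM, passed in this way, so nothing is read from the count or the median. PPDPF, 14.3 kb away, was listed at 208, 210 and 228 FPKM in the controls and at 432, 419 and 438 FPKM after butyrate, a log2 fold change of 1.00 (SE 0.05, adjusted p 5.5e-07, limma). All butyrate values were above all controls.

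STMN3, a stathmin gene best known from neurons and 63.8 kb away, was listed at 0.121, 0.0657 and 0.0627 FPKM in the controls. After butyrate it was at 2.26, 2.21 and 2.15 FPKM, a log2 fold change of 3.67 (SE 0.28). TNFRSF6B, the decoy receptor gene 94.9 kb away, was listed at 190, 200 and 201 FPKM in the controls and at 874, 955 and 849 FPKM after butyrate, a log2 fold change of 2.18 (SE 0.05, adjusted p 3.2e-08, limma). TNFRSF6B passed the DEG thresholds, and the groups were apart in both genes. STMN3 passed the filter on low values only through its butyrate values, so its change is given as a description.

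ARFRP1 rose by 0.44 (adjusted p 0.00513, limma) and lost its call without a filter on low values (0.000584 to 0.0602 over its alternatives). RTEL1, whose locus overlaps those of ARFRP1 and TNFRSF6B, had no call at -0.27, and reads of overlapping loci may be shared among them. LOC107131125 fell by 0.92 on the log2 scale.

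GMEB2 was at 5.38 ± 0.831 and 3.90 ± 0.508 FPKM (SD, n = 3; log2 fold change -0.45, adjusted p 0.0377, limma). Its call held in 8 of 14 alternatives, with adjusted p from 0.0131 to 0.128. The call was lost on the TPM scale, without the limma trend and without the filter on low values. Leaving out control replicate 2 or butyrate replicate 1 or 3 also removed it. C13H20orf195 (2.03) and LOC786845 (-0.50) had no call. SRMS and PTK6 were listed at 0 in every control and at means of 0.129 and 0.0795 FPKM after butyrate. Their means over all 6 cultures were below the 0.1 FPKM needed for a test. CHRNA4 was listed at 0 in all 6 cultures.

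**Figure D5:**
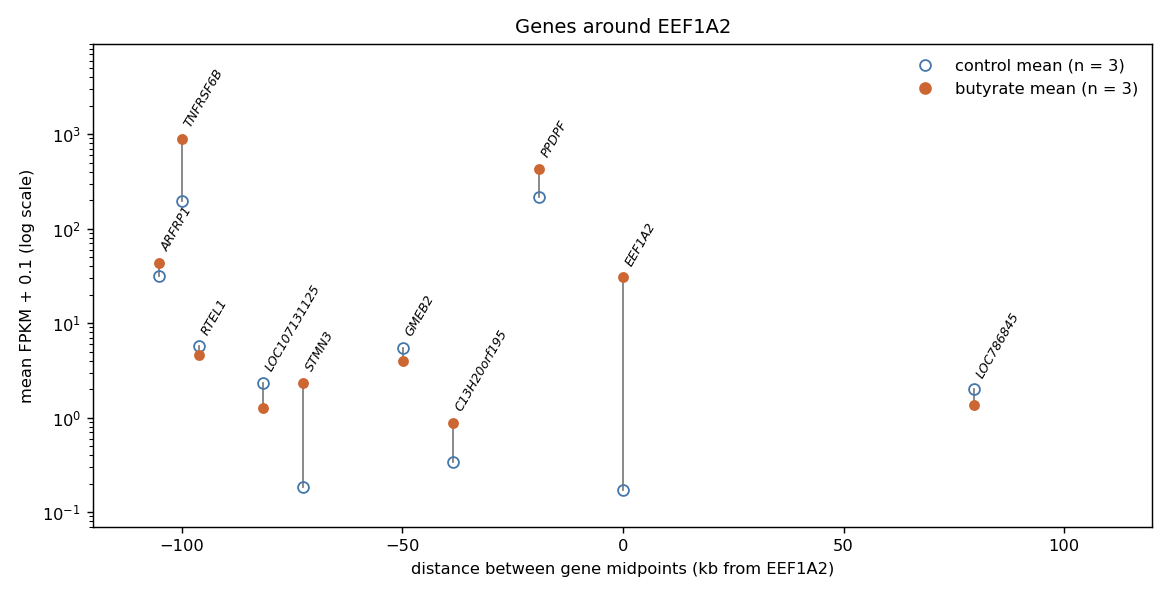
Mean FPKM + 0.1 (log axis) of EEF1A2 and the 9 genes tested within 100 kb of it, against the distance between gene midpoints in kb, with open circles for controls and filled circles for butyrate (n = 3 each). EEF1A2 spans the widest gap between its circles, followed by STMN3 and TNFRSF6B.

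The 5 named genes whose levels were nearest to EEF1A2 over the 6 cultures, by mean absolute difference on log2(FPKM + 0.1), were SLC17A7 (0.68), L1CAM (0.81), NDUFA4L2 (0.87), TNNT1 (0.88) and CLSTN3 (1.01). SLC17A7, the vesicular glutamate transporter gene, had means of 0.298 ± 0.127 and 30.9 ± 2.70 FPKM, and L1CAM, a neural adhesion molecule gene, of 0.378 ± 0.121 and 32.9 ± 2.60 FPKM (SD, n = 3). They lie on chromosomes 18 and X. TNNT1, the slow skeletal troponin T gene, had means of 0.361 ± 0.178 and 38.4 ± 2.30 FPKM (SD, n = 3). The genes were picked for this likeness, so no test is given. ARF6, LAMTOR2 and HSBP1 were nearest to EEF1A1, with mean absolute differences of 0.04, 0.05 and 0.05.

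Markers of the tissues in which EEF1A2 is best known were read beside it. Of 11 neuron markers, 4 were high enough to be tested and all 4 were called higher, beside 32.5% of all genes tested. RBFOX3, at a control mean of 0.0268 FPKM, passed the filter only through its butyrate values, so nothing is read from this count. The other 7 were below a mean of 0.1 FPKM and 1 of those, GAP43, was listed at 0 throughout. The summed level was 115 to 122 FPKM in the controls and 254 to 276 after butyrate, of which TUBB3 made up 116 ± 3.89 and 257 ± 10.9 FPKM (SD, n = 3), while RBFOX3 reached a mean of 1.02 FPKM.

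Of 12 striated muscle markers, 4 were tested, with 1 called higher and 2 lower, beside 32.5% and 25.9% of all genes tested. MYOG, MYH2 and TNNC2 were listed at 0 throughout. The summed level of the 12 markers went from 149 to 157.9 FPKM down to 18.3 to 19.7 FPKM. ACTA1 fell from 116 ± 2.96 to 14.5 ± 0.856 FPKM and ACTC1 from 37.7 ± 4.49 to 2.44 ± 0.227 FPKM (SD, n = 3), both past the DEG thresholds. CKM was the 1 called higher (log2 fold change 1.64), but at a control mean of 0.0754 FPKM it passed the filter only through its butyrate values. TNNT2 (2.62) had no call.

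Among the other cell types, 8 of 12 epithelial markers were called higher and 1 lower, beside 32.5% and 25.9% of all genes tested. Their summed level was 6199 to 6479 FPKM in the controls and 8917 to 9233 after butyrate. KRT14, KRT15 and PKP1 passed the DEG thresholds upwards. All 8 fibroblast markers tested of 10 were called higher, with VIM the highest and THY1 past the DEG thresholds. The fibroblast sum went from 4356 to 4512 up to 6374 to 6715 FPKM. Smooth muscle markers gave 2 higher and 3 lower of 6, and ACTA2, the highest, fell to 1006 ± 157 FPKM (SD, n = 3), with the sum going from 3478 to 3670 down to 1078 to 1441 FPKM. Immune and endothelial markers summed to 7.07 to 9.22 FPKM in the controls and to 14.1 to 16.0 after butyrate, and CD14 was the highest. Of these 7 markers, 3 of the 4 tested were called higher, and PTPRC and CDH5 were listed at 0 throughout. The part of these shifts in the elongation factor values was not tested.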

How the data were processed

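RNA-seq values of 3 control and 3 butyrate REPC cultures were used. Per the labels and methods, total RNA (RNA integrity number 9.0) was sequenced as paired 150-bp reads. The authors trimmed reads with Trim Galore 0.4.1, aligned them with STAR, and deposited Cufflinks gene-level FPKM with confidence bounds from uniquely mapped reads. The processing notes name UMD3.1, and the versions of STAR and Cufflinks are not given in the sources used here. Chromosome names were assigned to sequence identifiers through gene positions in the study's gene lists. Rows were joined by identifier, position and name, and 2 genes with a failed estimate were left out.

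limma 3.58.1 (R 4.3.3) with a mean-variance trend was fitted to log2(FPKM + 0.1) of the 15813 genes averaging 0.1 FPKM or more and tested on simulated data. No count model was used, since FPKM is already normalized. Implied fragments were taken as the square of 2 × FPKM over the distance to the upper bound. Alternatives were other pseudocounts, filters, TPM or quantile scaling, no trend, a replicate block, stricter thresholds and leaving out each culture. Implied fragments were added as a measure after the data had been seen.

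The genes named were the 7 elongation factor genes; in each translation list up to 3 called higher and 3 called lower with the largest change and groups apart; list genes past the DEG thresholds; genes within 100 kb of EEF1A2, of which 1 is not reported here; the 5 nearest to EEF1A2 and 3 nearest to EEF1A1; and the highest marker of each list and those past the DEG thresholds. Others are named where few passed. The 7 genes and the lists were chosen with earlier results of these data known. Of 124 listed translation genes 123 were matched, some through older symbols, EIF3C through the entry EIF3CL.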

Additional observations from a re-analysis of the deposited data

How the results depend on the processing

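The counts of translation genes called, 19 higher and 73 lower, fell to 2 and 25 with Bonferroni in place of Benjamini-Hochberg adjustment, and to 2 and 11 with Benjamini-Hochberg adjustment and a log2 fold change beyond 1, both being stricter by construction. With each culture left out in turn they ranged from 15 to 17 and from 67 to 73. The log2 change of EEF1A2 against EEF1A1 was 7.54, and 9.19 and 4.88 with pseudocounts of 0.01 and 1, which set the level given to the control cultures. It ranged from 7.16 to 7.75 with a culture left out, and 6 of the 7 elongation factor genes had groups apart each time. EEF1G reversed to 0.0206 after quantile normalization and EEF2K to 0.0518 in implied fragments, a measure chosen after seeing the data; the cause was not tested. The replicate numbers did not show a pairing (correlations of same-numbered deviations 0.02, -0.00431 and 0.00177), and with the replicate block 18 genes were higher and 73 lower. Genes below a few FPKM, such as EEF1A2 in the controls, rest on few fragments, so their folds are imprecise.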
